A study of Gallus gallus with 6 samples.

Results

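The very wide open regions of chicken abdominal fat were the stretches of 1500 bp or more that were accessible to the transposase Tn5 in at least 1 of 6 birds, on chromosomes 1 to 10. The authors' peaks of the 6 libraries were merged wherever they overlapped by 1 bp or more, and a merged region of at least 1500 bp was counted as wide. There were 1101 such regions, or 1.55% of the 71257 merged regions on chromosomes 1 to 10 and 5.98% of their bases, out of 100148 merged regions in the whole data set. Abdominal fat was taken from 6 NEAUHLF broilers, 3 of line FL and 3 of line LL. NEAUHLF broilers are known for a pair of lines bred for high and for low abdominal fat. Each bird gave 1 library of assay for transposase-accessible chromatin (ATAC-seq), made from a cell suspension of whole fat. Birds are numbered by the replicate number in the labels. The labels state neither age nor any treatment. Whole fat holds fat cells together with stromal, vascular and immune cells, so more cells of a type and more open chromatin per cell cannot be told apart. The regions were chosen by their width, mostly through 1 library, so widths, openness, coverage and peak numbers are given as a description, without a test.

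Most accessible sites of animal genomes are short, the length left free when transcription factors displace a nucleosome or a few. Longer accessible stretches are known from promoters with CpG islands, from pairs of neighbouring genes that share a promoter, and from groups of enhancers at genes that define a cell type. In fat cells, genes of lipid storage are known for such enhancer groups.

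The width limit was passed mainly through 1 library. For FL birds 1 to 3 the number of listed peaks was 58060, 32066 and 23188, and for LL birds 1 to 3 it was 73410, 23316 and 15628. LL bird 1 had a single peak of at least 1500 bp in 880 of the 1101 regions, FL bird 1 in 249, and the other 4 libraries together in 31. In 676 regions LL bird 1 was the only library with such a peak, and in 163 no single peak reached the limit and the width came from joining peaks of different libraries. Merging without LL bird 1 left 347 wide regions, and merging only the 4 libraries numbered 2 and 3 left 72. The lists give no read totals. The genome-wide background, solved from the peak statistics as a stand-in for depth, ran from 2.23 to 8.73 fragments over a base and was 8.10 in LL bird 1. It was highest in LL bird 3, which had the shortest list and 14 wide peaks.

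The width of the 1101 regions had a median of 1701 bp, with quartiles at 1584 and 1882 bp and a maximum of 3891 bp. Of them, 161 reached 2000 bp or more. The regions just inside the limit, all 1500 bp wide, lay near ADAMTS20, at the ends of ARHGAP42 and of NOD1 with GGCT, and inside SERTAD2 and CTNND1. Those just outside, 1 or 2 bp narrower, lay at TCP11X2, THSD7A and SEPTIN11 and inside ARID1B and TCF12. Regions on either side of the limit thus differed in width by 2 bp at most.

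Wide regions were open, that is held a peak, in most birds of both lines. FL birds 1 to 3 had a peak in 99.5%, 80.9% and 80.8% of them, and LL birds 1 to 3 in 99.8%, 85.2% and 76.2%. The lines overlapped, with means of 87.1% ± 10.8 in FL and 87.1% ± 11.9 in LL (SD, 3 birds each). Of the 1101 regions, 687 were open in all 6 libraries, against 6.54% of the other merged regions on these chromosomes. A further 167 were open in 5 libraries, 110 in 4, 86 in 3, 47 in 2 and 4 in 1.

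The breadth of the opening differed far more between libraries than its presence. Peaks covered 73.9%, 28.7% and 19.99% of the bases of the wide regions in FL birds 1 to 3, and 95.3%, 36.2% and 29.0% in LL birds 1 to 3. The first library of each line stood above the other 2, and the lines overlapped (means 40.9% ± 28.9 in FL and 53.5% ± 36.4 in LL, SD, 3 birds each). The difference FL minus LL was -12.6 points with all libraries. Merging without LL bird 1 gave another set of 347 wide regions, in which FL bird 1 covered 94.4% of the bases. The difference there was 7.06 points. In an open region the median number of covered bases was 1346.5, 605 and 403.5 bp in FL birds 1 to 3 and 1641, 715 and 619 bp in LL birds 1 to 3.

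**Figure D1:**
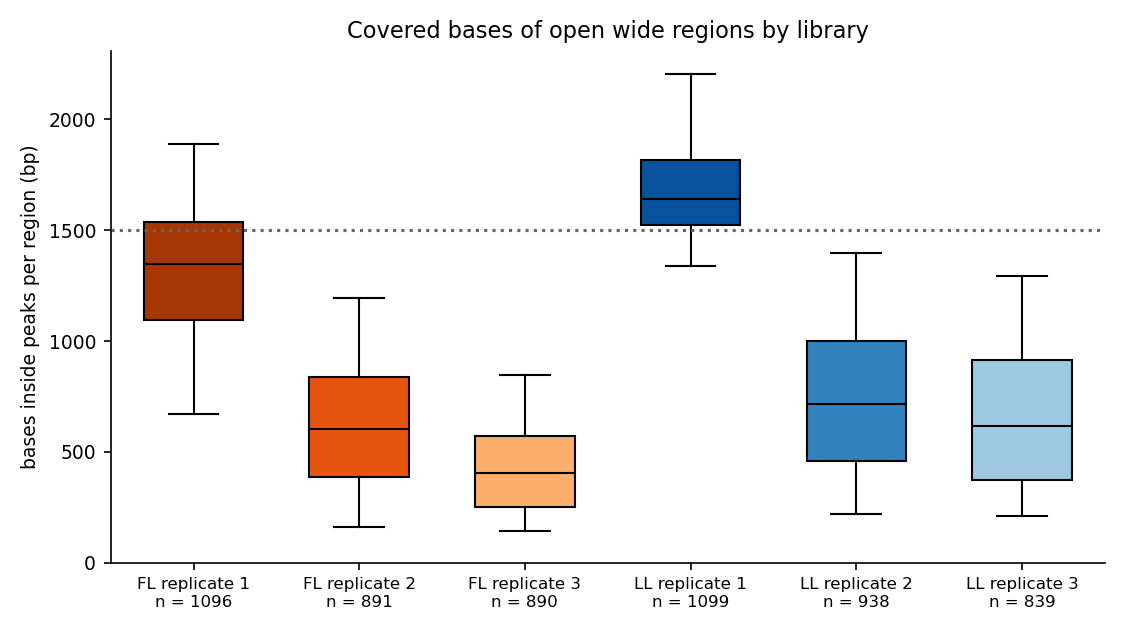
Bases inside peaks per open wide region (bp, vertical axis) in each library, with the median as a line, quartiles as the box and the 5th and 95th percentiles as whiskers. The median lies above the dotted 1500 bp limit only in LL bird 1, at 1641 bp, and at 1346.5 bp or less in the other 5 libraries.

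Peaks of the narrower libraries were spread along the wide regions. At the centre of the region a peak was present in 79.2%, 36.6% and 24.5% of wide regions in FL birds 1 to 3 and in 98.5%, 41.6% and 34.3% in LL birds 1 to 3. At 500 bp from the centre towards lower coordinates, the shares were 80.02%, 33.2% and 25.3% in the FL birds, against 98.5%, 42.1% and 34.1% in the LL birds. At 500 bp towards higher coordinates, they were 80.1%, 31.2% and 22.3% in the FL birds, against 98.2%, 43.1% and 33.1% in the LL birds. FL bird 2 was lower on both sides than at the centre, by 3 points or more, and the other 5 libraries differed from the centre by less than 3 points on either side. The strongest peak had its summit a median of 314 to 362 bp from the centre in the 687 regions open in every library. In those regions the summit of the strongest peak lay within 200 bp of that of LL bird 1 in 86.6%, 68.1% and 73.5% of regions in FL birds 1 to 3, and in 77.1% and 68.1% in LL birds 2 and 3. In most of these 687 regions the strongest point of access thus lay close to that of LL bird 1, also in libraries with narrower peaks.

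**Figure D2:**
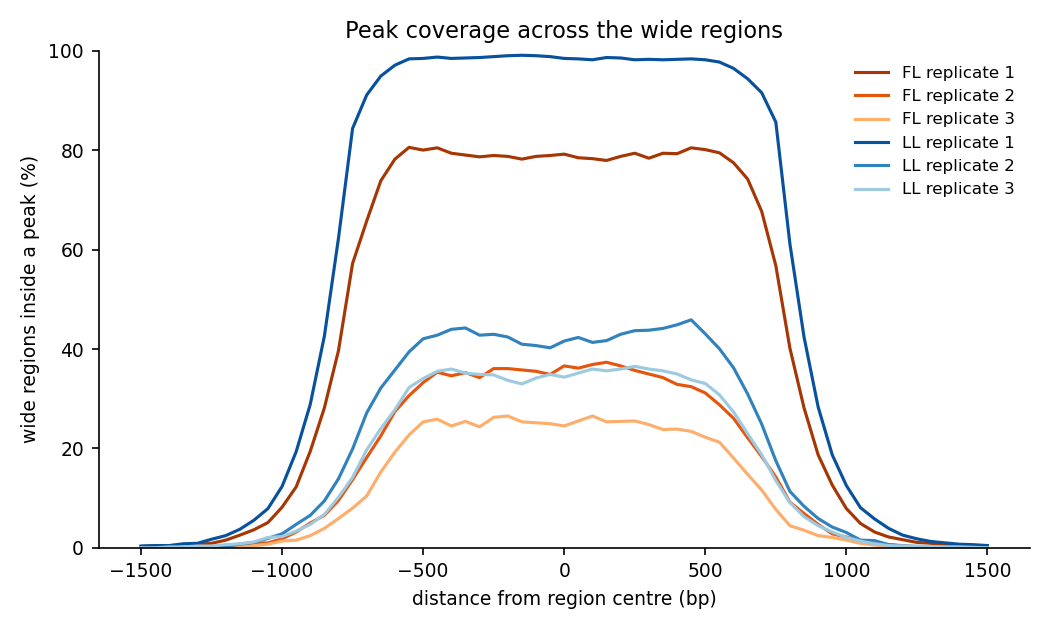
Share of the 1101 wide regions that lie inside a peak (%, vertical axis) at each distance from the region's centre (bp, horizontal axis), 1 line per library. LL bird 1 stays at 98.5% at the centre, FL bird 1 at 79.2%, and the other 4 libraries between 24.5% and 41.6%, with nearly flat tops.

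Some open wide regions held several peaks of 1 library. In FL birds 1 to 3, 454 of 1096, 374 of 891 and 333 of 890 open wide regions held 2 or more peaks. In LL birds 1 to 3 it was 47 of 1099, 272 of 938 and 197 of 839, so most held 1 peak in every library. An open wide region held 1.47, 1.48 and 1.43 peaks on average in FL birds 1 to 3 and 1.04, 1.31 and 1.24 in LL birds 1 to 3. Every FL library lay above every LL library (1.46 ± 0.0273 in FL and 1.20 ± 0.139 in LL, SD, 3 birds each), a difference of 0.262. The same order held in the other regions, at 1.04 ± 0.0128 peaks in FL and 1.01 ± 0.00823 in LL, and the shortest peak of a list was also smaller in every FL library (112 to 146 bp) than in every LL library (166 to 178 bp). The part of that limit in the result was not tested. LL bird 1 spanned 880 of the regions with a peak of at least 1500 bp, which the choice of regions favours, and without it the difference was 0.117. At equal list lengths the difference was 0.0831, and FL bird 1 held 1.07 peaks, below LL birds 2 and 3 at 1.18 and 1.27. The lines thus overlapped in both settings, each of which gave another set of wide regions. In the 1101 regions themselves, LL birds 2 and 3 also lay below every FL library. Neighbouring peaks of 1 library inside a wide region were a median of 301, 340 and 379 bp apart in FL birds 1 to 3 and 224, 418 and 388.5 bp in LL birds 1 to 3.

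The map of 4 regions shows examples with 1 peak and with several. At VIM and TRDMT1, the widest of all, LL bird 1 had 1 long and 1 short peak, and FL birds 2 and 3 and LL birds 2 and 3 had 1 peak each. Inside PPARA, FL bird 2 had 3 peaks and FL bird 3, LL bird 2 and LL bird 3 had 2 each within the stretch that LL bird 1 covered with 1 peak.

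**Figure D3:**
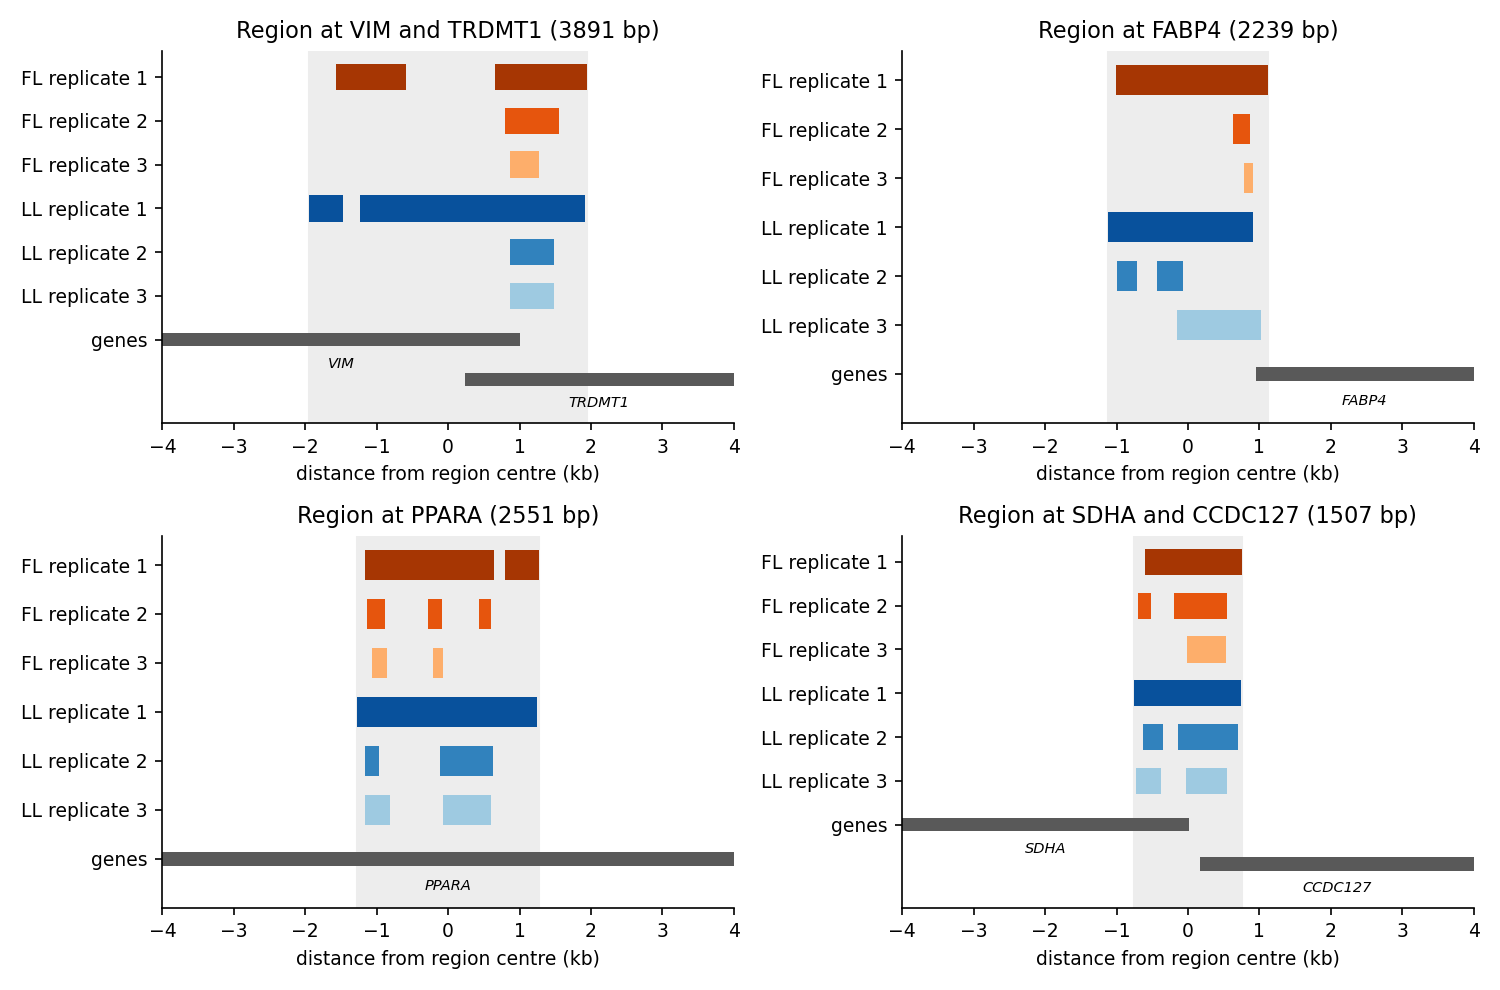
Peaks of each library (coloured bars, 1 row per library) in 4 wide regions, with coding genes as dark bars below, against distance from the region's centre (kb). The shaded span is the merged region, 3891 bp at VIM and TRDMT1, 2239 bp at FABP4, 2551 bp inside PPARA and 1507 bp at SDHA and CCDC127.

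The wide regions lay mainly at the ends of coding genes. Of the 1101, 675 (61.3%) were within 1 kb of an annotated end, 287 lay inside a gene and 139 outside genes, against 12.6%, 52.1% and 35.3% of the other regions on these chromosomes. The gene table has no strand, so a start and a finish of a gene could not be told apart. Among the regions open in each library, the share at gene ends was 61.6%, 71.4% and 68.7% of wide regions in FL birds 1 to 3 and 61.3%, 63.8% and 65.9% in LL birds 1 to 3. The other open regions of the same libraries were at 18.3%, 24.5% and 33.4% in the FL birds, against 15.5%, 27.8% and 35.4% in the LL birds. Wide regions were thus higher in 6 of 6 libraries, by 39.6 ± 6.62 points (SD, n = 6). The median width was 1701 bp for wide and 343 bp for other regions, a wider region has more bases that can lie near an end, and the libraries hold largely the same wide regions, so no p is given. The difference was 43.3, 46.9 and 35.3 points in FL and 45.8, 36.0 and 30.6 points in LL, with overlap between the lines.

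The comparison was repeated by the position of a single summit, and among regions open in every bird. By the summit of each library's widest peak alone, the difference was 35.2 points. Among regions open in all 6 libraries and placed by summit, 69.0%, 69.6% and 69.7% of wide regions were at gene ends in FL birds 1 to 3 and 67.5%, 67.5% and 68.1% in LL birds 1 to 3, against 60.1% to 60.3% of the other regions. The mean difference there was 8.33 points, against 35.2 points by summit over all regions. By the whole region, 74.2% of wide and 62.0% of other regions open in all 6 libraries were at gene ends. Over all regions these shares were 61.3% and 12.6%. The difference was thus smaller where only regions open in every bird were compared.

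Placed by the whole region, the share at gene ends was higher in each wider class over all regions, but not among regions open in every bird. Over all regions it was 5.47% under 250 bp wide, 8.15% from 250 to 500 bp and 19.3% from 500 to 1000 bp. It was 47.6% from 1000 to 1500 bp, 60.3% from 1500 to 2000 bp and 67.1% from 2000 bp. By the summit of the widest peak alone, the last 3 classes were at 44.5%, 54.1% and 52.8%, with no rise into the widest. Among regions open in all 6 libraries, the share by the whole region was 53.4% from 500 to 1000 bp and 75.6% from 1000 to 1500 bp. It was 74.8% from 1500 to 2000 bp and 71.7% from 2000 bp. By the summit of the widest peak it was 73.4%, 69.7% and 57.5% in the last 3 of those classes. In this subset, regions just under the width limit were at gene ends at least as often as the wide ones.

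**Figure D4:**
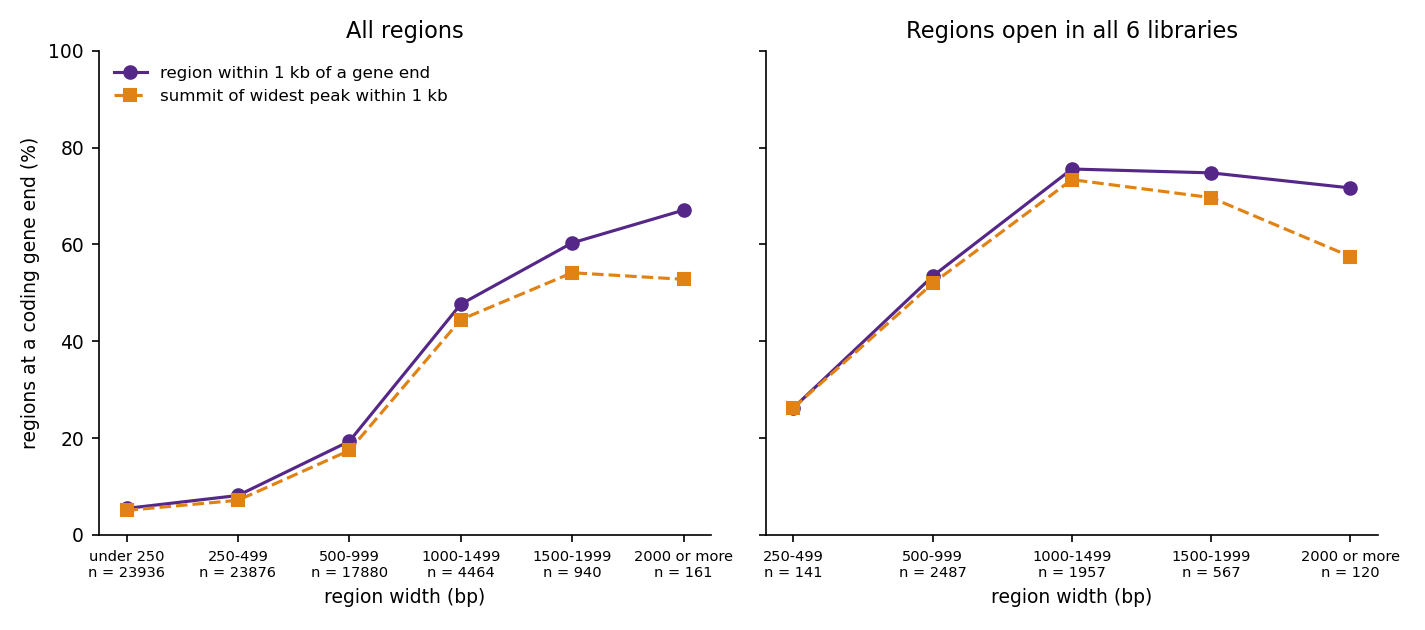
Share of regions at a coding gene end (%, vertical axis) by region width (bp, horizontal axis), over all regions at left and over those open in all 6 libraries at right. Solid lines place the whole region and dashed lines the summit of its widest peak. At right the solid line is at 75.6% from 1000 to 1500 bp and at 71.7% from 2000 bp, where the dashed line is at 57.5%.

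Ends of different genes often met in 1 wide region. Of the 675 at gene ends, 190 (28.1%) were within 1 kb of ends of 2 or more coding genes, such as SDHA, a subunit of respiratory complex II, with CCDC127, and RPL4, a ribosomal protein gene, with ZWILCH. Over the libraries the share was 28.8% ± 0.742 of wide gene-end regions and 27.4% ± 2.74 of other gene-end regions (SD, n = 6), a difference of 1.41 points. By summit it was -0.357 points, and by summit among regions open in all 6 libraries it was -4.54 points. Without LL bird 1 it was 8.88 points. With only the 4 libraries numbered 2 and 3, which left 72 wide regions, it was 18.6 points. The sign and size of the difference thus depended on the libraries and the setting. With each region counted once, 28.1% of wide and 22.1% of other gene-end regions had meeting ends. Among regions open in all 6 libraries it was 30.2%, against 32.9%. Whether meeting gene ends were more common in wide regions thus depended on how the regions were counted. Ends of long noncoding RNA genes lay within 1 kb of 155 wide regions (14.1%), against 3.67% of other regions, and of 37 of the 426 wide regions away from coding gene ends (8.69%), against 2.86%. Where only regions open in all 6 libraries were counted, these shares were 16.4% of wide regions, against 11.5% of others, and 9.04% away from coding gene ends, against 7.81%.

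**Figure D5:**
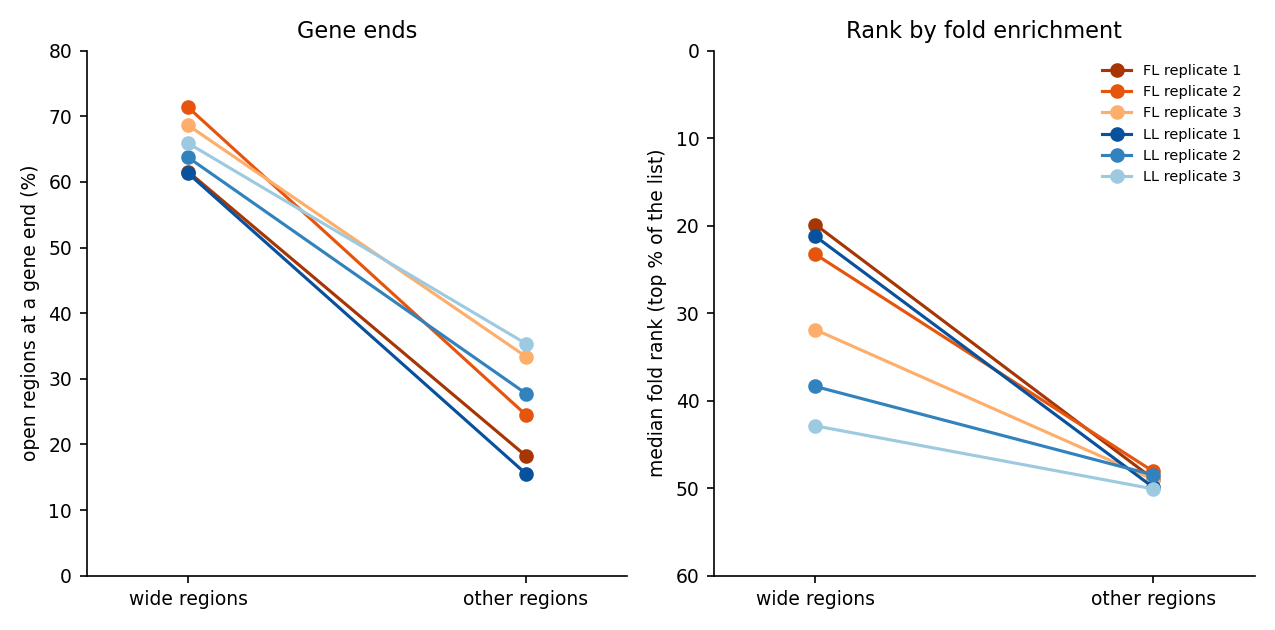
Wide regions (left points) and other regions (right points) of each library, 1 line per library. The left panel gives the share at a coding gene end (%), from 61.3% to 71.4% for wide regions and from 15.5% to 35.4% for the others. The right panel gives the median rank by fold enrichment (top % of the library's list, best at the top of the axis).

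Of the 10 widest regions, 8 were at gene ends and the others inside genes. The widest, 3891 bp on chromosome 2 at 19708059 to 19711949, spanned ends of VIM, the intermediate filament vimentin of mesenchymal cells, and TRDMT1, a tRNA methyltransferase. Its peaks covered 2271, 763 and 403 bp in FL birds 1 to 3 and 3621, 619 and 614 bp in LL birds 1 to 3. It was high in the first library of each line, and the other 4 libraries covered 763 bp of it or less. The second, 3369 bp on chromosome 3 at 27082059 to 27085427, lay at FOSL2, an AP-1 transcription factor. Peaks covered 1988, 0 and 0 bp of it in FL birds 1 to 3 and 3349, 422 and 183 bp in LL birds 1 to 3, so that FL birds 2 and 3 had none.

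The next regions by width joined neighbouring genes. TTLL1, which modifies tubulin, met BIK, a promoter of cell death of the BCL2 family, in 3341 bp on chromosome 1 at 68581400 to 68584740. PBLD met HNRNPH3, a splicing factor, in 3123 bp on chromosome 6 at 11330959 to 11334081. UBR1, a ubiquitin ligase of the N-degron pathway, met TMEM62 in 2996 bp on chromosome 5 at 25565384 to 25568379. ELF1, an ETS transcription factor, met WBP4, a splicing factor, in 2810 bp on chromosome 1 at 165728622 to 165731431. All 4 were open in all 6 libraries. A pair of the 10 lay inside genes, at SMARCD3, a subunit of the SWI/SNF remodelling complex (2920 bp), and at CTBP1, a transcriptional corepressor (2767 bp), and the last pair at genes with LOC numbers (3003 and 2896 bp). The region at LOC121111520 was open in FL bird 1 and LL bird 1 alone.

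Wide regions ranked above other regions by fold enrichment, but below them among regions open in every bird. The fold enrichment used here is the authors' value for a peak over its local background, ranked within a list, and it comes from the same peaks as the widths, so it carries no p. The best peak of a wide region ranked at a median of the top 19.9%, 23.3% and 31.9% of the list in FL birds 1 to 3 and at the top 21.2%, 38.4% and 42.9% in LL birds 1 to 3, against the top 48.1% to 50.1% for other regions. Among regions open in all 6 libraries the order turned in every library. In FL birds 1 to 3, wide regions were then at the top 13.1%, 18.8% and 27.3%, against 8.23%, 16.4% and 21.5% for the others. In LL birds 1 to 3, wide regions were at the top 14.8%, 30.9% and 38.3%, against 7.72%, 21.4% and 30.3% for the others.

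The local background was higher in wide than in other regions of every library. It was solved from the statistics of the same peaks that gave the widths, so it is a description and carries no p. At the best peak it was a median of 2.18, 1.60 and 2.14 times the genome-wide background in FL birds 1 to 3 and 2.79, 1.70 and 1.43 times in LL birds 1 to 3, against 1.08 to 1.38 times in the FL birds and 1.24 to 1.38 times in the LL birds for other regions. The median pileup of fragments at the best peak in FL birds 1 to 3 was 103.5, 39 and 39 for wide regions, against 45, 22 and 22 for others. In LL birds 1 to 3 it was 163, 43 and 43 for wide regions, against 57, 32 and 36 for others. Fold enrichment divides by the local background, and its part in the turned order was not tested.

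The wide regions that ranked best in their poorest library were all at gene ends. The best lay at LGR4, a receptor of R-spondins in WNT signalling (1517 bp on chromosome 5, 3894934 to 3896450), with a fold of 11.4, 9.78 and 14.6 in FL birds 1 to 3 and 12.8, 6.41 and 5.22 in LL birds 1 to 3. It stayed within the top 4.17% of every list. The second lay at BCKDHB, a subunit of the enzyme that breaks down branched-chain amino acids (1617 bp on chromosome 3, 78856983 to 78858599), with 11.4, 7.78 and 16.5 in the FL birds, against 12.6, 8.19 and 5.17 in the LL birds. It stayed within the top 4.41%. The rest of the 10, within the top 6.99% of every list, lay at PTP4A1, at PAPOLB with AK7, at NFYB, a CCAAT-binding factor, at KPNA5 with ZUFSP, at PREPL with CAMKMT, at TRAPPC6A with PNN, at ANAPC10 with ABCE1 and at CAB39L with SETDB2. Ends of a pair of genes met in 6 of the 10. Fold enrichment is relative to each library, so its values are not compared between lines.

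Away from coding gene ends there were 426 wide regions. Their median distance from the nearest coding gene end was 20155 bp, against 24054 bp for other regions. Among regions open in all 6 libraries it was 16133 bp for wide and 16160 bp for other regions. Of the 675 at gene ends, 75.6% were open in all 6 libraries, against 47.4% of those inside genes and 29.5% of those outside genes. This difference was not tested.

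Some genes held several wide regions. PPARA, the nuclear receptor that drives fatty acid oxidation, held 3 wide regions along its 278561 bp on chromosome 1, all open in all 6 libraries and none within 1 kb of its ends. The first, at 71159703 to 71162253 (2551 bp), was covered for 2281, 612 and 350 bp in FL birds 1 to 3 and 2513, 934 and 1022 bp in LL birds 1 to 3. The second, at 71181867 to 71184369 (2503 bp), was covered for 1637, 166 and 423 bp in the FL birds, against 2503, 1159 and 995 bp in the LL birds. In both the lines overlapped through FL bird 1. The third was 1528 bp wide. PRKAG2, a regulatory subunit of the energy sensor AMPK, also held 3, of which 1 was at an end and 2 were open in all 6 libraries.

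NFIA, a nuclear factor I gene with a known role in brown fat cells, held 4 wide regions inside its 331976 bp on chromosome 8 and had none at its ends. They were 1662, 1518, 1802 and 1621 bp wide. FL birds 1 to 3 covered the first for 1324, 562 and 384 bp and LL birds 1 to 3 for 1662, 734 and 957 bp. FL bird 3 alone had no peak in the middle pair, and the outer pair was open in all 6 libraries. ZBTB20, a zinc finger repressor, held 3 and COL4A2, a collagen of basement membranes, held 3. NBEA and MPHOSPH10 also held 3 each, and LOC121106455 held 4, as many as NFIA. MPHOSPH10 is annotated over 1076704 bp that hold other genes. Its regions lay at an end of MCEE, at ends of LARP6 and LRRC49, and inside TJP1. In NBEA, 1 of the 3 lay at an end of MAB21L1. The genes with several wide regions were chosen after their values were seen. Long genes have more room for regions, and 1046 of 1119 coding genes with a wide region in the gene or within 1 kb had only 1.

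Wide regions less than 100 kb apart were chained into loci, and 643 of 845 loci held a single one. The locus with the most lay on chromosome 1 at 11468565 to 11636668, with 5 wide regions around GNAT3 and GNAI1, which encode alpha subunits of G proteins. The first was at an end of GNAT3 and 4 lay outside genes, between 2848 and 24487 bp from the nearest end of GNAI1. Of the 5, 2 were open in all 6 libraries. There were 10 loci with 4 wide regions. Some of them held SIK1, a salt-inducible kinase, CITED2, a transcriptional coregulator, ADTRP, CTBP1 and a run of TM7SF3 with MED21, STK38L, ARNTL2 and PPFIBP1 on chromosome 1.

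Wide regions were spread over all 10 chromosomes. Their share of merged regions ran from 1.35% on chromosome 9 to 2.01% on chromosome 10. Per 100 coding genes, there were between 7.79 on chromosome 9 and 13.6 on chromosome 3.

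Listed genes were read against all coding genes. Over all 9934 coding genes of these chromosomes, 860 (8.66%) had a wide region within 1 kb of an end. Of the adipocyte identity list, 2 of 10 genes had one, FABP4, which binds fatty acids inside fat cells, and PNPLA2, the first lipase of triglyceride breakdown. The region at FABP4 was 2239 bp wide on chromosome 2 at 121034403 to 121036641. Peaks covered 2125, 227 and 138 bp of it in FL birds 1 to 3 and 2031, 647 and 1184 bp in LL birds 1 to 3. FL birds 2 and 3 were the lowest and FL bird 1 the highest, so the lines overlapped. The region at PNPLA2 was 1618 bp wide, with 1375, 598 and 308 bp in the FL birds, against 1618, 982 and 652 bp in the LL birds.

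The best peak at FABP4 ranked by fold at the top 77.7%, 92.4% and 95.9% of the lists of FL birds 1 to 3, and at the top 61.8%, 88.2% and 40.1% of those of LL birds 1 to 3, below the middle of the list in 5 of 6 libraries. The other 8 adipocyte identity genes had no wide region at an end. Of genes of lipolysis and oxidation, 2 of 9 had one, PNPLA2 and ACADL, an acyl-CoA dehydrogenase of long chains, whose region also met an end of CPS1. Lipid synthesis had 1 of 12, INSIG1, a brake on sterol synthesis, with 1464, 1016 and 487 bp covered in FL birds 1 to 3 and 1515, 471 and 0 bp in LL birds 1 to 3. Insulin signalling had 1 of 11, GRB10, an adaptor of the insulin receptor, and regulators of adipogenesis had 2 of 13, TWIST1 and RB1, the retinoblastoma gene. The regions at GRB10 and RB1 were open in 2 and 3 libraries. Housekeeping genes had 3 of 8, RPL4, SDHA and the elongation factor gene EEF1A1, and immediate early genes 2 of 10, FOSL2 and KLF6. Each list is short and was not tested.

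Patterning genes and genes of other cell types were counted in the same way, without a test. The list of HOX genes had 0 of 19 and other developmental transcription factors 4 of 48 (8.33%), HAND2, TWIST1, MEOX2 and GATA6. HAND2, a factor of heart and limb mesenchyme, had 2040 bp, covered for 1528, 398 and 132 bp in FL birds 1 to 3 and 1954, 631 and 427 bp in LL birds 1 to 3. GATA6 was open in FL bird 1 and LL bird 1 alone, with 1335 and 1596 bp. Of other cell types, fibroblast and progenitor genes had 2 of 16, COL1A2, a chain of type I collagen, and TWIST1. Endothelial genes had 1 of 8, PROX1, the factor of lymphatic endothelium, and lymphocyte genes 1 of 4, RHOH. Myeloid genes had 0 of 3, smooth muscle and pericyte genes 0 of 5, mesothelial genes 0 of 5, skeletal muscle genes 0 of 7, neuronal genes 0 of 7 and hepatocyte genes 0 of 9. In all, 18 of the 191 listed genes on these chromosomes had a wide region at an end, against 860 of all 9934 coding genes (8.66%). Merging without LL bird 1 left 347 wide regions and 3 such listed genes. The share of all coding genes was not counted there, so the 3 cannot be set against a background.

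The lines were then compared region by region. No wide region was covered for more bases in every FL than in every LL library, against 0.215% of all regions on these chromosomes. The reverse held for 11 wide regions (0.999%), against 0.382% of all regions. Wide regions passed the width limit mostly through LL bird 1, so their choice works against FL and favours LL in these counts. The direction can thus not be read as a difference between the lines. Among regions open in all 6 libraries, FL was covered more in 0 of 687 wide regions, against 0.0948% of all such regions, and LL in 7 of 687 wide regions (1.02%), against 1.57% of all such regions, so the share of wide regions was near the background. Without FL bird 1 the number was 367, without LL bird 3 it was 52, and without LL bird 1 it was 6, with 28 in the other direction. The share of all regions was not counted with a library left out, so these numbers cannot be set against a background. Regions were merged anew each time, so both the count and the regions counted depended on single libraries. No single region was tested, since 3 birds per line allow an exact p of 0.1 at best.

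Of those 11 regions, the one at KLF6 was at a listed gene. At KLF6, a Krüppel-like factor of early response genes, a region of 1719 bp on chromosome 2 at 11738417 to 11740135 was covered for 368, 0 and 0 bp in FL birds 1 to 3 and 1719, 582 and 467 bp in LL birds 1 to 3. It lay 35 bp from an annotated end of KLF6, and FL birds 2 and 3 had no peak. The best peak at KLF6 ranked by fold at the top 69.6%, 65.5% and 76.1% of the lists of LL birds 1 to 3. A region of 1641 bp on chromosome 4 at 39045759 to 39047399 lay at ends of ACSL1, which activates long-chain fatty acids, and of CENPU, with 666, 406 and 253 bp in the FL birds, against 794, 1641 and 816 bp in the LL birds. LL bird 2 was the highest there, and not LL bird 1. The largest difference of means, at -862 bp, was outside genes on chromosome 3 at 61269730 to 61271366, with 329, 0 and 0 bp in the FL birds, against 1637, 589 and 690 bp in the LL birds. Its best peak ranked higher, at the top 2.79%, 11.7% and 18.7% of the lists of LL birds 1 to 3. Others lay near CD69L and GPR132, at KDM5A, a histone demethylase, at SDHAF4 and TNRC6B, near ARHGAP39 and near CD86, a costimulatory molecule of antigen-presenting cells. The region near ARHGAP39 had a local background of 8.48 to 24.3 times the genome-wide one. By fold its best peak ranked at the top 89.5% to 99.1% of the 6 lists.

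Presence in 1 line alone was rare. The region inside VTI1A, a SNARE of vesicle transport (1505 bp on chromosome 6, 27755768 to 27757272), was the only wide region open in all LL and no FL libraries, with 0 bp in each FL library and 1283, 235 and 436 bp in LL birds 1 to 3. Its best peak ranked by fold at the top 60.9%, 53.4% and 69.2% of their lists, below the middle of each. No wide region was open in all FL and no LL libraries. The choice of regions, mostly through LL bird 1, favours LL in these counts as well. Over all regions on these chromosomes these patterns made up 0.073% and 0.175%. Merging without FL bird 1 gave 954 wide regions, of which 38 were open in LL alone. Merging without LL bird 1 gave 347, of which 6 were open in FL alone. The share of all regions was not counted in these settings, so these numbers cannot be set against the shares above.

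A small group was wide in several birds. A single peak of at least 1500 bp was present in 3 or more libraries in 20 regions, and in 4 or more in 4 of them. These 4, named after their values were seen, lay at ends of RMND1 with CCDC170, TTF2, CLCN3 with NEK1, and LOC121113086. At RMND1, a gene of mitochondrial translation (1741 bp on chromosome 3, 48577321 to 48579061), peaks covered 1727, 1403 and 972 bp in FL birds 1 to 3 and 1719, 1632 and 1604 bp in LL birds 1 to 3. At LOC121113086 (2003 bp on chromosome 2, 79971362 to 79973364), they covered 2003, 1507 and 1102 bp in the FL birds, against 1638, 1950 and 1997 bp in the LL birds. It was the only wide region with such a peak in 5 libraries. The other 16 included EZH2 and KMT2E, which encode chromatin enzymes, and BNIP3, a gene of mitophagy.

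A pair of the 20 had a high local background in every library. Near ARHGAP39 (1865 bp on chromosome 2, 148801667 to 148803531) the highest local background was 14.0, 24.3 and 17.3 times the genome-wide one in FL birds 1 to 3 and 8.48, 12.8 and 13.1 times in LL birds 1 to 3. Its fold enrichment was 2.35 to 3.06 and ranked near the end of every list, at the top 89.5% to 99.1%. Near LIMS1, a focal adhesion gene (2360 bp on chromosome 1, 136394128 to 136396487), the background was 12.2, 14.9 and 10.9 times in the FL birds, against 17.7, 15.6 and 12.2 times in the LL birds. In the 20 regions the best peak had a median local background of 1.70 to 4.33 times the genome-wide one.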

How the data were processed

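Each of 6 birds gave 1 ATAC-seq library of its abdominal fat. Per the submitters' processing notes, peaks rest on the assembly GRCg7b, and the tools named are MACS3 3.0.0b1, bedtools 2.30.0, SAMtools, BWA, FastQC and Trim Galore. No source used here states their settings, how duplicates were treated or whether ends were shifted for Tn5. The authors deposited 1 peak list per library with a score, a fold enrichment (a ratio to local background), −log10 p and −log10 q. Pileup and local background were solved from the deposited fold and −log10 p (tolerance 0.001), which worked for 100% of peaks. No read totals were used, so counting intervals are not given.

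The gene table, RefSeq on GRCg7b, held 9934 coding genes on chromosomes 1 to 10. Without a genome or strand, no sequences, exons or starts were used. Exact permutations of libraries between lines and exact sign flips over 6 libraries were computed, but their p-values are not printed, since the choice of regions by width fixes or moves these measures and the libraries share most regions. Python 3.11.15, numpy 2.4.6, pandas 2.3.3 and scipy 1.17.1 were used, and the merging and tests were tested on simulated data. The 18 gene lists hold 337 different genes, of which 191 were found as coding genes on chromosomes 1 to 10.

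The regions and lists were chosen with earlier results of these data known. Named were the 10 widest regions, the 10 with the best poorest rank, 5 on either side of the limit, the 10 fullest loci (1 of them is not reported here), regions whose lines did not overlap and listed genes with a wide region at an end. The settings tried were −log10 q of at least 5, joining by 50 bp, equal list lengths, a limit of 2000 bp, single peaks of 1500 bp, other gene end windows, summits and each library left out. The genes with most wide regions and the regions wide in several birds were named after their values were seen. No label states that birds of the same number are paired across the lines.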

Additional observations from a re-analysis of the deposited data

Results flagged for a closer look

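Wide regions also occurred outside the chromosomes compared above. On chromosomes 11 to 39, Z and W, 468 merged regions reached 1500 bp, or 1.62% of 28891, against 1.55% on chromosomes 1 to 10, and they entered no comparison. With 3 libraries per line, no line was searched for a library far from the others.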

How the results depend on the processing

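Read totals were not used, so the part of depth in the widths was not tested, and 3 birds per line cannot pass a threshold. The excess at gene ends kept its sign in every setting. With −log10 q of at least 5, the rank difference was -9.61 points and 0 regions were open in 1 line alone. With joins of 50 bp the difference in open regions, FL minus LL, was -0.0920 points. At equal list lengths it was -5.77 points, the rank difference was -3.97 points, 32 regions were covered more in 1 line (5 in FL, 27 in LL), 13 were open in 1 line alone (2 in FL, 11 in LL) and 10 listed genes had a wide region. From 2000 bp there were 161 regions, 0 covered more in 1 line, 0 open in 1 line alone, 3 listed genes and a difference of -1.01 points for meeting gene ends. With single peaks of 1500 bp the difference in open regions was -0.249 points and 0 were open in 1 line alone. By summit, meeting gene ends differed by -0.357 points. Among regions open in all 6 libraries the rank difference was 6.27 points and that of meeting gene ends, by summit, -4.54 points. The 4 libraries numbered 2 and 3 gave 72 regions, a difference of 0 points in open regions, 49.9 points at gene ends and a rank difference of -28.3 points. For meeting gene ends they gave 18.6 points. In them, 46 regions were covered more in 1 line (1 in FL, 45 in LL), 0 were open in 1 line alone and 0 listed genes had a wide region. The share of all regions covered more, or open, in 1 line was not counted for any of these settings or with a library left out. Nor was the share of all coding genes with a wide region at an end.

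Leaving out each library in turn gave 347 to 1095 regions, -6.11 to 4.18 points in open regions, -30.0 to 7.06 points of bases covered, 0.117 to 0.322 peaks per open region and -33.9 to 18.9 points for single wide peaks. Gene ends gave 38.1 to 47.4 points and ranks -23.6 to -17.3 points. Meeting gene ends gave 1.20 to 8.88 points, regions covered more in 1 line 12 to 367, regions open in 1 line alone 1 to 38 and listed genes 3 to 18. Same-numbered birds of the lines correlated at 0.261, 0.212 and 0.0335, and birds of different numbers at -0.291 to 0.202. The labels do not say whether the numbers pair birds, and these values cannot decide it. With a replicate block the difference in bases covered was -12.6 points. Lines of equal size give the same value with and without a block, so this is no check of the result.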
